A study of Homo sapiens with 2 samples.

Results

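The genes of the Hippo pathway core, from its kinases to its transcription factors, were examined for peaks of RNA bound by HNRNPC in A549 cells, an established line of human non-small cell lung cancer. The 10 genes were the kinase genes STK3, STK4, LATS1 and LATS2, the coactivator genes YAP1 and WWTR1, and TEAD1, TEAD2, TEAD3 and TEAD4. A peak was taken as a member when its summit, the position of highest enrichment, lay within the RefSeq span of one of these genes on human genome build 38. This gave 66 peaks of 23148 in the deposited list, or 0.286% (95% exact binomial interval 0.221 to 0.363%) of the 23111 peaks on chromosomes 1 to 22, X and Y. No member summit lay within the span of any other annotated gene.

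RNA immunoprecipitation sequencing (RIP-seq) recovers RNA together with a protein by means of an antibody. The series has 2 samples of A549 cells in the same culture medium, with no treatment named. One is a library of the immunoprecipitate (IP), for which 5 µg of anti-HNRNPC antibody was used, and the other an input library made without antibody. HNRNPC, a nuclear protein of the hnRNP family with a preference for U-rich RNA, is studied in the series as a reader of the RNA mark m6A. Each group is a single library, so no value has a replicate error and none could be tested between samples.

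In the Hippo pathway the kinases MST2 and MST1, encoded by STK3 and STK4, activate the kinases LATS1 and LATS2. These phosphorylate the coactivators YAP, encoded by YAP1, and TAZ, encoded by WWTR1, which keeps them in the cytoplasm or leads to their breakdown. When the kinases are inactive, YAP and TAZ enter the nucleus and bind TEAD transcription factors, which do not activate well on their own, and genes of growth and adhesion are turned on. In lung epithelium the pathway is known for its part in growth control, repair and cancer.

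Peaks of 3 genes reached into the first 50 bases after a listed transcript start, and for these a short stretch of RefSeq sequence (GRCh38.p14) could be set beside the peak. The STK4 peak covered the start itself, and those of YAP1 and LATS2 lay after it. Bases 21 to 50 of each transcript are shown 5′ to 3′ on the transcript strand, written as DNA, because this is where the sequence at hand and the peaks meet. Capitals mark the bases that lie inside the peak.
YAP1, chr11:102110467-102110496, plus strand: gccagggaaaagAAAGGGAGGAAGGAAGGA
LATS2, chr13:21061537-21061566, minus strand: aatgtagcgaatgtcccacttgggtCTGCG
STK4, chr20:44966532-44966561, plus strand: GAGCAGTGAGCGGGTCTGGGCGGCTGCTGG
The motif TTTTT, a run of 5 U in the RNA, was searched on the transcript strand. It was absent from the first 50 transcribed bases of these 3 genes, whose longest run of T there was 1 in YAP1, 2 in LATS2 and 1 in STK4. Of the 10 listed starts of the members, 1, in LATS1, held it in the first 50 bases, and no peak reached that stretch. The first 50 bases held it in 2.57% of 22199 listed starts of protein-coding genes. The summit lay at transcript base 37 in STK4, 92 in LATS2 and 647 in YAP1. Only the STK4 summit therefore fell inside the sequence shown, and the other 2 summits lay beyond it. Sequence under the other peaks was not analysed here.

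Peaks lay in 7 of the 10 genes, against 18.4% of all 20037 protein-coding genes. The share of genes with a peak varied with span, so each gene was set beside protein-coding genes of similar span, in 10 classes. This share went from 2.05% in the shortest class to 40.4% in the next to longest. In the longest class, that of WWTR1, TEAD1 and STK3, it was 33.6%. The shares of genes with a peak in the members' own classes ranged from 13.4 to 40.4% and add up to 3.14 genes of 10. These shares were not matched on expression, which a peak list does not measure, and a peak needs an expressed RNA. All 4 kinase genes held peaks, 31 in all, and both coactivator genes did, with 15. Of the TEAD genes TEAD1 alone did, with 20. The median fold enrichment of the 66 peaks, the authors' value for each peak over the background the caller used, was 6.03 (95% binomial interval of the median 5.27 to 7.46), beside 5.76 for all peaks. A fold of 10 or more was reached by 13 of the 66 (19.7%), beside 8.65% of all peaks, and 9 of these 13 were in TEAD1. A q of 0.001 or less was reached by 60 of the 66 (90.9%), beside 81.5% of all peaks.

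The reads behind each peak could be inferred, since the deposited fold and p together fit whole numbers of IP reads over a control level at every summit. This inference gave a single solution for all 66 peaks. The weakest member peaks rested on 7 IP reads and the deepest on 51, with a median of 19.5, beside a median of 15 for all peaks. These are reads over 1 position, so every fold below carries a wide counting error, and folds recur because few whole numbers are possible: at the background level of 0.103 control reads, 8 IP reads give a fold of 4.79 and 20 give 10.6.

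**Figure D1:**
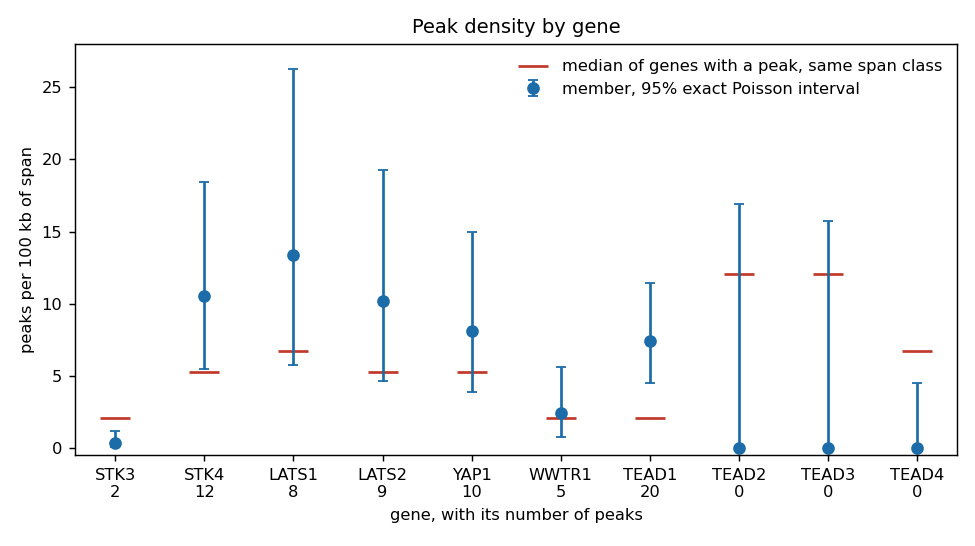
Peaks per 100 kb of gene span (vertical axis) for each of the 10 genes (horizontal axis, with the number of peaks under each name). Points are the genes, bars their 95% exact Poisson intervals, and red lines the median of protein-coding genes with a peak in the same span class; STK3 lies at 0.334 and LATS1 at 13.3, and TEAD2, TEAD3 and TEAD4 lie at 0.

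The upstream kinase genes differed widely in number of peaks. STK3 (chromosome 8, 98343975 to 98942610), the longest of the 10 genes at 598.6 kb, held 2 peaks, or 0.334 per 100 kb (95% exact Poisson interval 0.0405 to 1.21). Both had the shortest width in the list, 47 bp, a fold of 5.27 and 9 IP reads at the background control level. They lay at 98774743 to 98774789 and at 98825602 to 98825648, 50.9 kb apart. These are among the weaker peaks in the list, as 65.8% of all peaks had a fold as high and 20.5% rested on 9 reads or fewer. RefSeq places 11 other genes or pseudogenes in this span, and neither summit was in one.

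STK4 (chromosome 20, 44966512 to 45080021, 113.5 kb) held 12 peaks, 10.6 per 100 kb (5.46 to 18.5). Its interval does not overlap that of STK3. These intervals cover counting error only and treat neighbouring peaks as independent. In number of peaks STK4 ranked 506 of 20037 protein-coding genes, and 211 of the 2004 genes of its span class had as many. Folds ran from 4.79 to 11.1 with a median of 8.44, the highest median of the 7 genes. The highest fold belonged to a peak at 45001142 to 45001385, with 21 IP reads and a −log10 q of 15.8. A peak at 44966511 to 44966594, whose STK4 sequence is shown above, covered the transcript start with a fold of 10.1 from 19 reads. The widest peak, 2896 bp at 45075058 to 45077953, had a fold of 7.73 and lay 2.52 kb from the 3′ end. In 10 of the 12 STK4 peaks the control stood at its background level, so the folds there follow the IP reads alone. The first 9 peaks followed each other at gaps of under 10 kb over the first 34.8 kb of the gene, and the next 2 gaps reached up to 52.5 kb.

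The downstream kinase genes held 8 and 9 peaks, most of them of moderate fold. LATS1 (chromosome 6, 149658153 to 149718101, 59.9 kb) held the 8, 13.3 per 100 kb (5.76 to 26.3), and LATS2 (chromosome 13, 20973036 to 21061586, 88.6 kb) held the 9, or 10.2 per 100 kb (4.65 to 19.3). The intervals overlap, which does not show that the densities are alike. As many peaks were found in 10.4% of the span class of LATS1 and in 15.1% of that of LATS2. The median fold was 5.70 in LATS1 and 6.24 in LATS2.

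The strongest LATS1 peak, at 149676551 to 149676713, had a fold of 7.22 from 13 reads. The widest, 517 bp at 149679896 to 149680412, had 6.51 from 12 reads. No LATS1 peak rested on more than 15 IP reads, and its lowest fold was 4.30 from 7 reads. A group of 3 peaks lay 2.23 to 3.92 kb from the 3′ end, and the peak closest to the 5′ end was 16.2 kb away from it.

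The strongest LATS2 peak, at 21061374 to 21061541, had a fold of 10.6 from 20 reads and reached into the LATS2 sequence shown above, with its summit 91 bp after the transcript start. The remaining 8 had folds from 4.71 to 7.66. The highest of these belonged to the widest LATS2 peak, 533 bp at 20983230 to 20983762. LATS2 had 7 of its 9 peaks in a run of 14.2 kb that began 1.96 kb from the 3′ end, and between this run and the next peak lay 57.0 kb without one. When peaks less than 500 bp apart were merged, LATS2 kept 5, so its count depends on how finely the caller divided that run.

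Of the 7 genes with peaks the coactivator genes had the lowest median folds and the highest median numbers of IP reads. YAP1 (chromosome 11, 102110447 to 102233424, 123.0 kb) held 10 peaks, 8.13 per 100 kb (3.90 to 15.0), and 13.6% of its span class had as many. WWTR1 (chromosome 3, 149517235 to 149724788, 207.6 kb) held 5, or 2.41 per 100 kb (0.782 to 5.62), which 19.7% of its class reached. The median fold was 4.97 in YAP1 and 4.27 in WWTR1, both below the 5.76 of all peaks. The IP reads told another order, with 21 to 34 reads at the YAP1 summits and 38 to 51 at those of WWTR1.

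All 15 coactivator peaks stood at a control level of 1 read or more, against 30.6% of all peaks. At such levels a given number of reads gives a lower fold. In the whole list the median fold was 6.24 at the background control level, from a median of 11 reads. It was 3.78 at a control level of 3 or more, from a median of 36 reads. The caller's threshold sets part of this order, as the fewest reads of any listed peak were 6 at the background control level and 25 at a control level of 3 or more. What share the abundance of each RNA has in this was not tested.

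The strongest and widest YAP1 peak, 885 bp at 102230353 to 102231237, had a fold of 7.49 from 34 reads over a control level of 1.57. It lay 2.78 kb from the 3′ end, with a peak on either side within 5 kb of that end. The first peak, 661 bp at 102110479 to 102111139, began within the YAP1 sequence shown above and had a fold of 5.15 from 27 reads over 2 control reads. The lowest fold in YAP1 was 3.02, from 32 reads over 5, at 102223655 to 102223711.

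For WWTR1 each peak is given. The one at 149518639 to 149519180 had the lowest fold of all 66, 2.83, and yet 51 IP reads, over a control level of 9. Its neighbour at 149519512 to 149520246 had the highest WWTR1 fold, 5.66, from 51 reads over 4. Both lay within 2.62 kb of the 3′ end. The peak at 149542319 to 149542489 had 3.40 from 49 reads over 7. The peak at 149572916 to 149573018 had 4.27 from 38 reads over 4. The last, at 149657187 to 149657267, had 4.63 from 50 reads over 5 and lay 769 bp after a transcript start that RefSeq lists inside the span. By fold the peak of 2.83 ranked 22991 of 23111, and by IP reads it ranked 225, so the same peak was near the bottom of the list by fold and in its top 1.07% by reads.

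**Figure D2:**
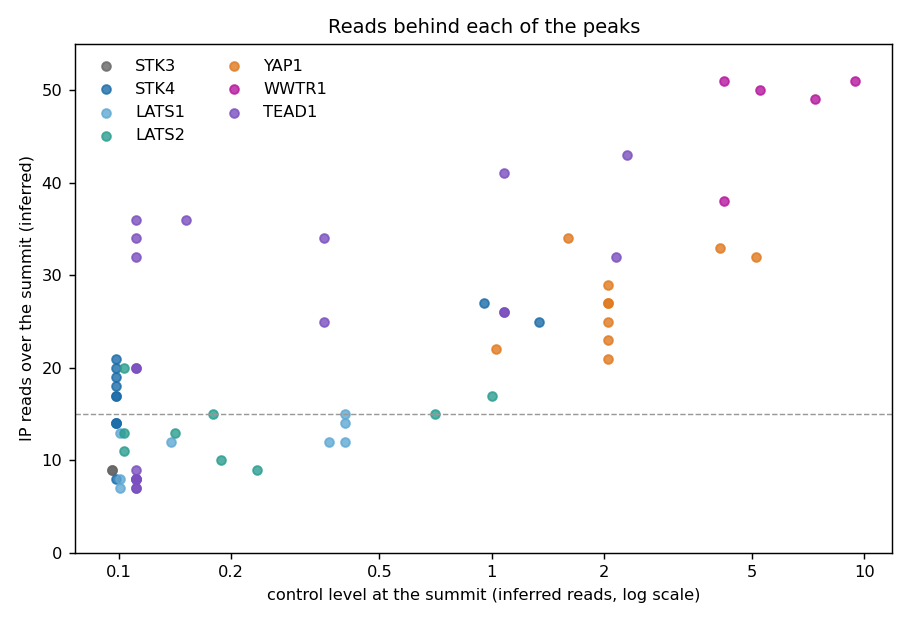
IP reads inferred at the summit (vertical axis) against the inferred control level there (horizontal axis, log scale) for the 66 peaks, coloured by gene and shifted slightly sideways by gene (STK3 most to the left, TEAD1 most to the right) to separate points; the dashed line is the median of 15 reads over all peaks. WWTR1 lies at the upper right with 38 to 51 reads over 4 or more, YAP1 at 1 to 5 control reads, and most STK4 peaks at the background level on the left.

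Among the TEAD genes the peaks were in TEAD1. TEAD1 (chromosome 11, 12674421 to 12944737, 270.3 kb) held 20 peaks, 7.40 per 100 kb (4.52 to 11.4), and ranked 148 of 20037 genes by number, with 3.94% of its span class at as many. Its highest fold, 18.4, ranked 36 among the highest folds of the 3685 genes with a peak. TEAD2 (chromosome 19, 49340595 to 49362416), TEAD3 (chromosome 6, 35473597 to 35497079) and TEAD4 (chromosome 12, 2959397 to 3040676) held none, nor did a peak overlap their spans with any base.

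A count of 0 allows up to 3 peaks, which is 13.7 per 100 kb in TEAD2, 12.8 in TEAD3 and 3.69 in TEAD4. By 95% exact Poisson intervals the upper limits were 16.9, 15.7 and 4.54 per 100 kb. Each overlaps the interval of TEAD1, by little in TEAD4. Overlap of separate intervals does not decide whether 2 densities differ, and a difference from TEAD1 was not tested for any of the 3. In their span classes 13.4% of genes (TEAD2 and TEAD3) and 32.5% (TEAD4) had a peak, so that no peak is the common state in each. Expression of these genes was not measured in the list, so an RNA that is absent and one that is unbound cannot be told apart.

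TEAD1 peaks covered a wide range of folds, from 4.30 to 18.4. A fold of 10 or more was found in 9, from 20 to 41 IP reads. A fold under 6 was found in 7, each of 7 to 9 reads at the background control level. The remaining 4 had folds from 6.05 to 7.64, from 26 to 43 reads over 1 control read or more. The highest fold was at 12879676 to 12879878, with 18.4 from 36 reads and a −log10 q of 31.7, ranked 48 of 23111 by fold. It was followed by 12862237 to 12862344 with 17.8 from 36 reads, 12930139 to 12930353 with 17.4 from 34 and 12882985 to 12883152 with 16.4 from 32. Beneath each of these the control level was 0.141 or lower.

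A run of 12 TEAD1 peaks lay within 20.8 kb, from 187.9 to 208.6 kb after the lower-coordinate end of the span, after a gap of 97.9 kb. This run held 3 of the 4 strongest peaks and 6 of the 7 weakest. A group of 3 peaks began at the lower-coordinate end, where the first, at 12674425 to 12674834, had a fold of 14.5 from 34 reads. Near the other end lay the widest of all 66, 5648 bp at 12937113 to 12942760, with a fold of 7.64 from 43 reads over 2.14. Without TEAD1 the other 9 genes held 46 peaks with a median fold of 5.59, beside the 5.76 of all peaks. The interval of the median of all 66 peaks, 5.27 to 7.46, holds both values. No other gene was left out in turn, and the median fold of STK4, 8.44, was higher than that of TEAD1, 7.55.

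**Figure D3:**
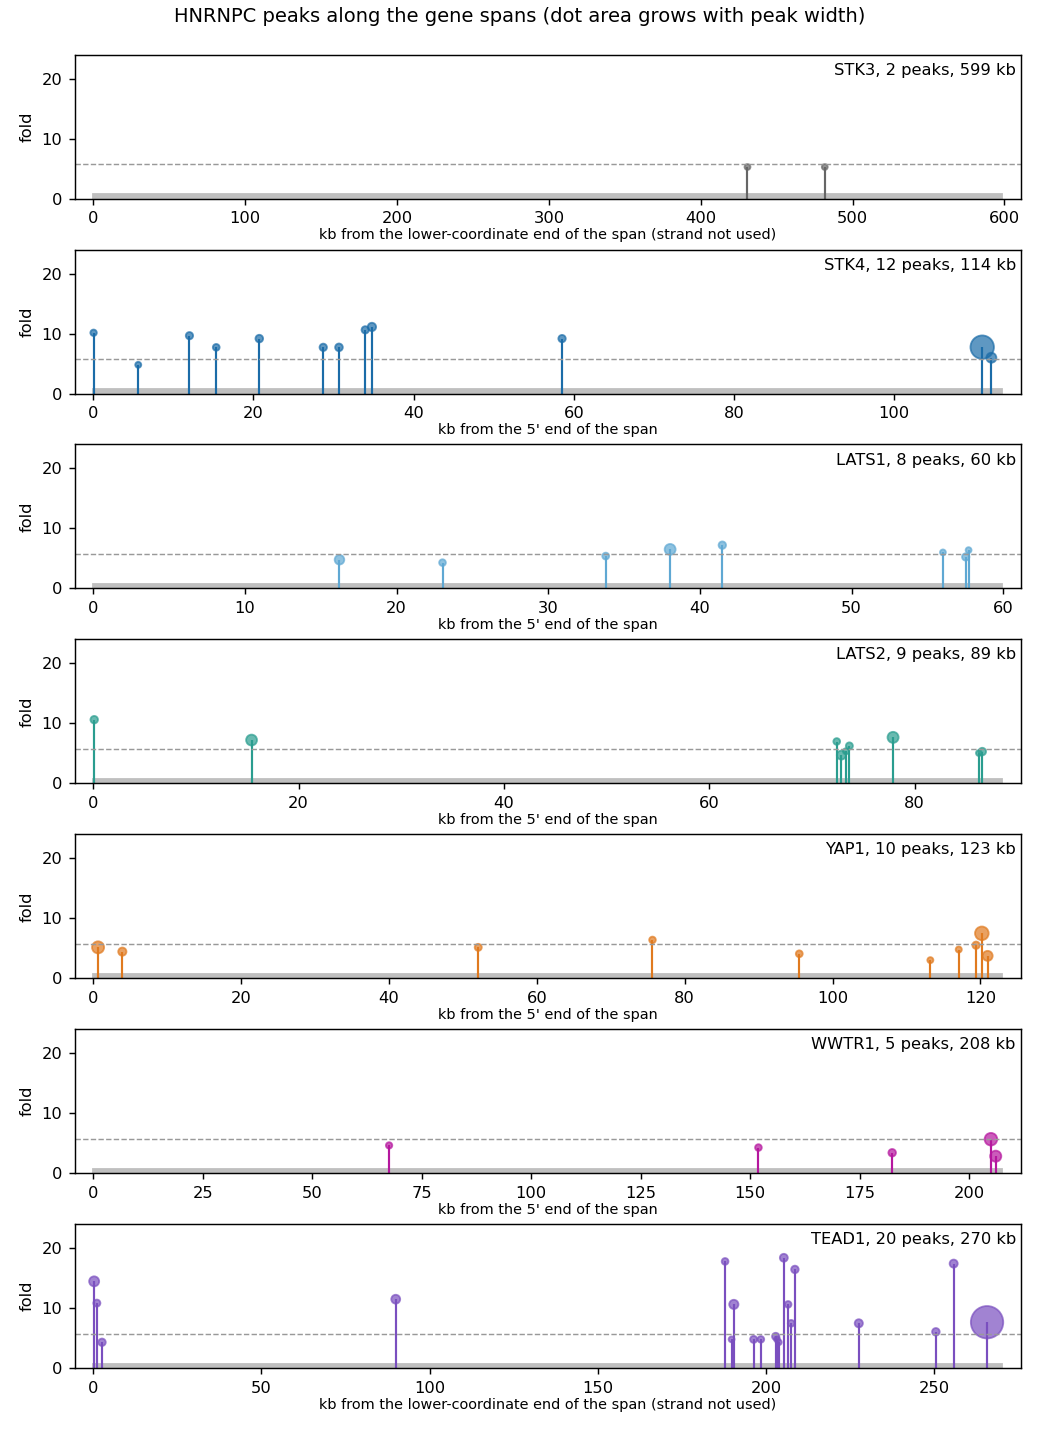
Peaks along the spans of the 7 genes that have any, with the distance in kb from one end of the span on the horizontal axis (from the 5′ end where the strand was at hand, otherwise from the lower-coordinate end) and the fold of each peak on the vertical axis. Stems stand at the summits, dot area grows with peak width, and the dashed line is the median fold of all peaks, 5.76; TEAD1 shows the tallest stems, and wide peaks stand within 5 kb of the right end of STK4, YAP1, WWTR1 and TEAD1.

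The strand was at hand for 7 of the 10 genes, and the 5 of these that had peaks all had some near the 3′ end. YAP1, WWTR1, LATS1, LATS2 and STK4 each had at least 2 summits within 5 kb of the 3′ end, 12 of their 44 peaks (27.3%, 95% exact interval 15.0 to 42.8%). Over protein-coding genes of 20 kb or more with a listed strand the share was 7.89%, and of such genes with 5 peaks or more 40.4% had a summit there. Within 5 kb of the 5′ end lay 4 of the 44 (9.09%, 2.53 to 21.7%), in 3 of the 5 genes. Over the same wider sets of genes these shares were 12.4% of peaks and 72.2% of genes. Both ends are those of the span, and transcript starts inside it were not counted. The WWTR1 peak 769 bp after such a start was thus taken as 67.5 kb from the 5′ end. Of the 10 peaks of 400 bp or more in these 5 genes, 6 lay near the 3′ end, beside 24.9% of such peaks in the other genes. All 6 were in YAP1, WWTR1 and STK4, and no LATS1 or LATS2 peak of this width lay there. In each of the 5 genes at least 2 of the peaks near the 3′ end were less than 500 bp apart. Their count therefore depends on how finely the caller divided them, and these shares were not recomputed with merged peaks. The wider sets were not matched to the 5 genes on span, and 5 kb covers more of a shorter span. Peaks of 1 gene are not independent, and 5 genes are few, so these shares describe the genes and were not tested. TEAD1 and STK3 were left out here since their strand was not used.

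Counting both ends alike, 20 of the 66 summits (30.3%, 19.6 to 42.9%) lay within 5 kb of an end, beside 20.1% in protein-coding genes of 20 kb or more, again not matched on span. Within 2 kb it was 13.6%.

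The partners of these kinases and coactivators were covered as well. Of 66 other genes of the pathway, 37 (56.1%, 43.3 to 68.3%) held a peak and 29 did not, beside 18.4% of all protein-coding genes. The shares of their span classes add up to 18.5 genes. This list was chosen with earlier results of these data known, and the shares were not matched on expression. The comparison is therefore not independent of the data, and an excess of peaks in the pathway was not tested. The median of their highest folds was 7.70, beside 7.04 over all genes with a peak and 7.49 over the 7 members with one. Numbers of peaks, over which a highest fold is taken, differed as well. The 37 genes held 293 peaks, while the median over all genes with a peak was 4 peaks. TJP1, which encodes the tight junction protein ZO-1, had the highest fold, 20.2, and 23 peaks. TAOK1, a kinase that acts upstream of the MST kinases, had 17.9 and 20 peaks. NF2, which encodes the tumour suppressor merlin, had 14.5 and 13 peaks, and RASSF2, of a family that binds the MST kinases, had 14.5 and 12 peaks. The giant cadherin gene FAT1 had 14.5 and 21 peaks. STRN3, a subunit of the phosphatase complex that opposes the MST kinases, had 12.6 and 13 peaks. WWC3, a relative of the scaffold KIBRA, held 22 peaks with a highest fold of 9.16.

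The direct partners of the kinases, named after their values were seen, were mixed. MOB1A, a coactivator of the LATS kinases, had 6 peaks and a highest fold of 10.7 from 58 reads over 2 control reads. Its paralog MOB1B had 9 peaks and a highest fold of 8.67 from 16 reads. SAV1, the scaffold of the MST kinases, had 1 peak, with a fold of 4.69 from 11 reads.

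Of 25 well-known targets of YAP and the TEADs, 14 (56.0%, 34.9 to 75.6%) held a peak, and their span class shares add up to 5.07 genes. The same limits hold here, as this list too was chosen with earlier results known and was not matched on expression. LATS2, AMOTL2, AJUBA and PTPN14 stand in this list and also among the members or the other pathway genes. The median of the highest folds was 10.7, beside 7.04 over all genes with a peak. A highest fold is taken over all peaks of a gene. These 14 genes held 192 peaks, while the median over all genes with a peak was 4 peaks. MYOF, a membrane repair gene, had 16.9 and 30 peaks, and DOCK5, an activator of Rac, had 15.95 and 57 peaks. The receptor tyrosine kinase gene AXL reached 13.4, the ligand gene TGFB2 12.5, the kinase gene NUAK2 12.01 and CRIM1 11.6. ASAP1 held 28 peaks and CRIM1 20. The targets CCN1, CCN2 and ANKRD1, named after their values were seen, held none. Their spans are short, at 3.19, 3.197 and 8.99 kb. In their span classes 1.996% of genes (CCN1 and CCN2) and 3.74% (ANKRD1) had a peak, so that no peak is the common state in each.

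**Figure D4:**
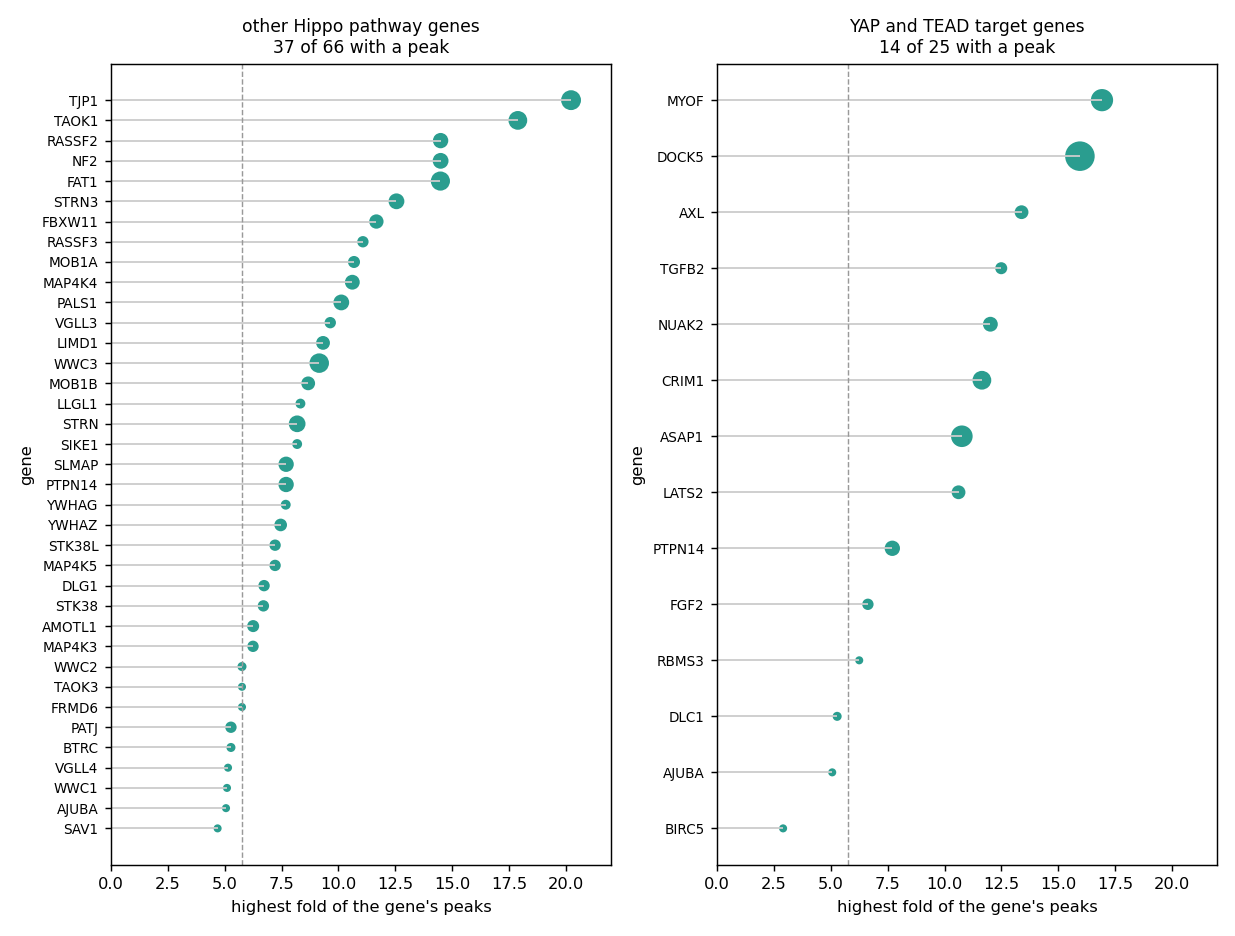
Highest fold (horizontal axis) of each gene with a peak (vertical axis) among the 66 other pathway genes, left, and the 25 YAP and TEAD targets, right; dot area grows with the number of peaks and the dashed line is the median fold of all peaks, 5.76. TJP1 leads the left panel at 20.2 and MYOF the right panel at 16.9.

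The cell type could not be checked from these data, because a peak marks enriched RNA and not expression. Of 9 genes taken as marks of epithelium and of A549 cells, CDH1 (10 peaks, highest fold 10.7) and ALDH1A1 (8 peaks, 6.24) had peaks, and EPCAM, KRT8, KRT18, KRT19, AKR1B10, AKR1C1 and AKR1C2 had none. None of 4 blood genes and none of 4 fibroblast and endothelial genes had a peak. Over all protein-coding genes the share was 18.4%. The span class shares add up to 1.64 of the 9 genes, 0.548 of the 4 blood genes and 1.06 of the other 4. The counts are near these sums, so they do not set the 3 kinds of marker apart.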

How the data were processed

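The assay was RIP-seq of A549 cells, with 1 HNRNPC IP and 1 input library. Per the submitters' processing notes, the tools were HISAT2, MACS2 and bedtools, on hg38. Versions, roles and settings are not given in the sources used here, nor whether the input was the caller's control. The authors deposited 1 peak list for the IP library, with a score (10 times the −log10 q, cut to a whole number), a fold enrichment (a ratio), and the −log10 of p and q for each peak, but no strand or read total. The input's own values were not analysed here.

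Gene spans were those of RefSeq on GRCh38, patch 14, in a table without exons, so exons, introns and UTRs were not resolved. Every protein-coding gene was counted by the members' summit rule, and summits shared by several genes counted for each. Strand came from a RefSeq table of promoters, with 7 of the 10 members and 79.1% of protein-coding genes. TEAD1, TEAD4 and STK3 were not matched there. Statements on 3′ and 5′ ends cover matched genes.

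IP reads and control levels were inferred by taking fold as (scaled reads + 1) over (control + 1), and p as a Poisson tail. The control was the common background (0.103), whole reads, or reads in 10 kb times a read length of 47 bp, the shortest peak. Whole reads within 0.02 were found for all 23148 peaks, with 1 solution for 99.5%. IP depth came to 1.87 times that of the control. Of 4870 summits simulated from the inferred values with the same formulas and scale, 99.98% were recovered. This checks the arithmetic only, and cannot show whether the caller worked this way. Intervals are exact binomial (Clopper-Pearson) or exact Poisson at 95% and cover counting error only.

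All members, their groups and both gene lists were chosen with earlier results of these data known, as was the inference. The genes named are all 10 members, with the highest, lowest-q and widest peak of each, all peaks where there were 5 or fewer, and in each list the 6 with the highest fold and 4 with the most peaks. Other peaks and genes were named after their values were seen. Alternatives were stricter q or fold, other overlap rules, unshared summits, merged peaks and other distances. Scripts used scipy 1.17.1, numpy 2.4.6, matplotlib 3.10.9 and pandas 2.3.3 under Python 3.11.15.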

Additional observations from a re-analysis of the deposited data

How the results depend on the processing

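The 7 results on counts of genes and peaks, density, median fold and position were recomputed with a fold of at least 4, with q at most 0.001, with any base of the peak, or at least as many bases as outside, in the span, summits in no other protein-coding span, and peaks less than 500 bp apart merged, as far as each applies. Of 43 such values, 3 without TEAD1 among them, 42 stayed within 1.5 times a count or within the interval of a share or median. The exception was the share of summits near an end, 13.6% within 2 kb in place of 30.3% within 5 kb, because the shorter distance covers less of each span. Shares and medians over all genes or all peaks were not recomputed, so the comparisons with them were not rechecked. Merging kept the highest fold of each run, which alone can raise the median fold, and the median was then 7.10. For single genes, WWTR1 went from 5 peaks to 3 with a fold of 4 or more, and LATS2 from 9 to 5 with merging. Leaving out TEAD1, chosen after seeing the data, left 46 peaks, 3.49 per 100 kb in place of 4.16, and a median fold of 5.59. No paired analysis was possible because each group has 1 sample. Depth limits the weaker peaks, of 7 to 9 IP reads, most.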
